A study of Mus musculus with 6 samples.

Results

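Matrix metalloproteinases and their tissue inhibitors are described here through 9 genes: the metalloproteinases Mmp2, Mmp3, Mmp13, Mmp14, Mmp16 and Mmp19 and the inhibitors Timp1, Timp2 and Timp3. They were found by their symbols in the gene lists of the deposited matrices, and all 9 are among the 30406 genes that the 6 libraries share. The libraries are single-nucleus RNA-seq of the tibial periosteum of wild-type C57BL6 mice (C57BL/6ScNj in the study's methods), the tissue sheet on the outer bone surface that feeds bone repair, made to follow its response to fracture. There are 2 libraries of uninjured periosteum, 2 of day 3 after an open, non-stabilized fracture, 1 of day 5 and 1 of day 7. The fracture libraries were scraped together with the hematoma and the uninjured libraries were not, so the tissue taken and the injury cannot be told apart. Each library pools animals, 4 per uninjured library and 4 to 9 per fracture library, with 12-week-old males and females mixed in the groups.

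After filtering, 6371 nuclei with 23573848 UMIs (unique molecular identifiers, which count captured RNA molecules) were analysed, between 375 and 2148 per library, with medians of 1159 to 3764 UMIs per nucleus. Clusters were rebuilt without the genes described here and named after fixed markers, with the ending "-like". Stromal-like nuclei are the chondrocyte-like, osteoblast-like and fibroblast-like clusters together with those like skeletal stem/progenitor cells (SSPC-like) and like injury-induced fibrogenic cells (IIFC-like). They numbered 90 and 325 before injury and 121 and 251 at day 3. The day 5 library held 1103 of them and the day 7 library 787. In 1 of the day 3 libraries, replicate 2, 4712 barcodes were deposited, of which 1231 exceeded the limit on mitochondrial UMIs, 2024 that on ribosomal UMIs and 393 that on genes, some more than 1 of them. The limits left 1723 barcodes, and 1322 nuclei were analysed after myogenic nuclei were removed. The day 7 library also lost many of its 3448 barcodes. There 2096 exceeded the ribosomal and 1114 the mitochondrial limit, some of them both, 1351 were kept and 1122 nuclei were analysed. With looser limits on these UMIs, 2843 nuclei of the day 7 library counted as stromal-like. Levels are given as CPM, the UMIs of a gene per 1000000 UMIs of all genes in the nuclei concerned, and are compared within a gene only, since intronic reads count and long genes gather more of them.

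Matrix metalloproteinases are zinc-dependent enzymes that cut collagens and other matrix proteins outside the cell, and they are made as inactive precursors. Mmp2 is a gelatinase, Mmp3 a stromelysin that also activates other family members, Mmp13 the main interstitial collagenase of rodent bone and cartilage, Mmp14 and Mmp16 membrane-anchored enzymes, and Mmp19 a further secreted member. The tissue inhibitors bind the active site of these enzymes. Timp2 also takes part, with Mmp14, in the activation of the Mmp2 precursor, and Timp3 is held in the matrix and inhibits proteases of the ADAM and ADAMTS families as well.

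On build GRCm38, Mmp13 lies at chr9:7272514-7283331 and Mmp3 at chr9:7445822-7455975, both on the plus strand. Mmp2 lies at chr8:92827291-92853420, Mmp14 at chr14:54431612-54445364 and Mmp19 at chr10:128790910-128800824, all on the plus strand. Mmp16 is much the longest of the 9, with 266253 bases at chr4:17852893-18119145, plus strand. Timp1, at chrX:20870166-20874735, and Timp3, at chr10:86300372-86349506, lie on the plus strand inside the spans of Syn1 and Syn3, which run on the opposite strand. Timp2 lies at chr11:118301069-118355740 on the minus strand and shares 18.55% of its span, on the same strand, with Cep295nl, so a part of its count is uncertain. Of the 9 genes, 6 are in the RefSeq promoter table used; Mmp2, Mmp16 and Mmp19 are not.

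The upstream sequences of 4 genes are shown: Timp1 and Timp3, which moved in opposite directions at day 3 in stromal-like nuclei, and Mmp13 and Mmp3, which lie near each other on chromosome 9 and had few UMIs in stromal-like nuclei. Each is RefSeq sequence on GRCm38, 5′ to 3′ on the plus strand, and ends at the last base before the annotated gene start. For Timp3 the RefSeq start lies inside the annotated gene, and the 40 bases of the window within the gene were left out. Timp1 is chrX:20869916-20870165, Timp3 chr10:86300162-86300371, Mmp3 chr9:7445572-7445821 and Mmp13 chr9:7272264-7272513. Capitals mark matches to 5 letter strings, searched on both strands: for AP-1 factors the letters TGACTCA, for ETS factors the letters AGGAAG, for RUNX factors the letters AACCACA, for the GC box the letters GGGCGG, and for the box named after its letters, TATAAA. No match overlaps another.
Timp1: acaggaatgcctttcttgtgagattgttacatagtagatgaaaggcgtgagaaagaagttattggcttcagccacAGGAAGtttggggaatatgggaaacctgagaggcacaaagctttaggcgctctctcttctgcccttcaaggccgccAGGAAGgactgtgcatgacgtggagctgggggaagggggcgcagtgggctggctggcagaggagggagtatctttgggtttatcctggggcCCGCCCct
Timp3: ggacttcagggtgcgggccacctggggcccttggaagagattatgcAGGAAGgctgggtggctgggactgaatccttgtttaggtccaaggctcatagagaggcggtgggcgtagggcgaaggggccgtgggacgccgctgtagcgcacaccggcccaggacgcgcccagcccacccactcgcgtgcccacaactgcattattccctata
Mmp3: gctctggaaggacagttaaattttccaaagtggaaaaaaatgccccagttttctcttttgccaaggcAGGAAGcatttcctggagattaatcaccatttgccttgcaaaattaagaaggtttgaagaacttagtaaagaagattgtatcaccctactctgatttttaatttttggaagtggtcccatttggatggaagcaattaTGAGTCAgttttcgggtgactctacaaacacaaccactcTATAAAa
Mmp13: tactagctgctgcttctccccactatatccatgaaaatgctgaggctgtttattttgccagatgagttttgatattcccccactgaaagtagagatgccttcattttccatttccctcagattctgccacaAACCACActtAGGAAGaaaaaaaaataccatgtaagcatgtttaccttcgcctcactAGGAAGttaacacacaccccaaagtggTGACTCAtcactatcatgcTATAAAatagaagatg

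The Mmp13 window held an AP-1 match that begins 35 bases before the gene start, a RUNX match at 119 bases, ETS matches at 109 and 62 bases and a TATA match at 16 bases. The Mmp3 window held an AP-1 match at 46 bases, a TATA match at 7 bases and an ETS match at 183 bases. Timp1 held ETS matches at 175 and 99 bases and a GC box match at 8 bases. Timp3 held 1 ETS match, 204 bases before its RefSeq start, which lies 40 bases inside the annotated gene. Among 32851 promoters cut to the same 250 bases, 4.46% held the AP-1 string, 29.5% the ETS string, 4.4% the RUNX string, 32.7% the GC box and 12.4% the TATA string, and among windows of the 210 bases used for Timp3, 25% held the ETS string.

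To see how the inhibitors moved after fracture, the stromal-like nuclei of the day 3 libraries were compared with those of the uninjured libraries. The 3 inhibitors changed and did not go the same way: Timp1 was higher at day 3, while Timp2 and Timp3 were lower. None of the 6 metalloproteinases passed the test. The counts were summed per library and tested in edgeR by quasi-likelihood, and p-values were adjusted after Benjamini and Hochberg over the 9421 genes tested. Of the 9 members, all of which passed the filter on low counts, 3 were called, 1 higher and 2 lower, where 8.13% of all genes tested were called, 3.85% higher and 4.28% lower. The median log2 fold change was -0.40 over the members and 0.10 over all genes tested.

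Timp1, the inhibitor known for its induction by injury and inflammation, gave 7.61 and 26.1 CPM in the stromal-like nuclei of the uninjured libraries. The day 3 libraries gave 77.2 and 166 CPM, the day 5 library 52.5 CPM and the day 7 library 11.7 CPM. Both day 3 libraries lay above both uninjured libraries, and the day 7 library lay between the uninjured values, which rest on 1 and 34 UMIs. The log2 fold change at day 3 was 2.47 (SE 0.51, adjusted p = 0.0153 by edgeR, n = 2 and 2 libraries).

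Timp2 stood at 312 and 344 CPM before injury and at 37.4 and 78.1 CPM in the day 3 libraries. The day 5 library gave 142 CPM and the day 7 library 73.5 CPM. Every fracture library lay below both uninjured libraries. The log2 fold change at day 3 was -2.47 (SE 0.37, adjusted p = 0.0040 by edgeR). Timp3, the matrix-bound inhibitor, stood at 274 and 381 CPM before injury and at 22.4 and 73.0 CPM in the day 3 libraries, with 58.1 CPM in the day 5 library and 65.5 CPM in the day 7 library. Here too every fracture library lay below the uninjured range, with a log2 fold change at day 3 of -2.74 (SE 0.44, adjusted p = 0.0051 by edgeR).

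These calls need both uninjured libraries. Without uninjured replicate 1, which also leaves only libraries made with Cell Ranger 7.1.0, the log2 fold changes were 2.12 for Timp1, -2.64 for Timp2 and -3.04 for Timp3, with edgeR adjusted p-values of 0.129, 0.0552 and 0.0557. Without uninjured replicate 2 they were 3.95, -2.43 and -2.49, with adjusted p-values of 0.151, 0.103 and 0.149. With either day 3 library left out, all 3 inhibitors were still called. Dropping uninjured replicate 1 does not make the gene lists alike. Day 3 replicate 1, like days 5 and 7, has a longer gene list than the uninjured libraries. Day 3 replicate 2 shares the shorter list with the uninjured libraries. The part of this difference in the TIMP values was not tested. Nothing in the labels says more of the replicates than that they are separate samples, so the p-values measure the spread between these libraries.

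The stromal-like mixture changed with injury as well. The summed level of the 5 SSPC markers within it was 2610 and 1543 CPM in the uninjured libraries and 65 and 120 CPM at day 3, and that of the 6 markers of the immune list 68 and 33 CPM against 159 and 379 CPM. The 5 fibroblast markers stood at 4071 and 8452 CPM against 1870 and 2468 CPM. The 6 IIFC markers stood at 2252.5 and 3601 CPM against 4470 and 8404 CPM. The 6 osteoblast markers stood at 327 and 1055 CPM against 1738 and 1684 CPM, with Bglap at 0 in replicate 1 of both groups and Ifitm5 at 0 in day 3 replicate 1. IIFC-like nuclei numbered 14 and 21 uninjured and 64 and 102 at day 3. The endothelial, Schwann and adipocyte lists were at 74.4 to 213 CPM uninjured and at 17.4 to 44.1 CPM at day 3, and the pericyte/SMC list at 137 and 140 CPM against 49.8 and 79.2 CPM. The tenocyte list was at 30.4 and 64.5 CPM against 329 and 254 CPM. Of the 7 endothelial markers Cdh5 and Emcn had no UMI in uninjured replicate 1 nor, with Flt1, in day 3 replicate 1, and of the 6 Schwann markers Sox10 had none in any of these libraries. Of the 6 immune markers, Cd53, Laptm5 and Ikzf1 had no UMI in uninjured replicate 1, Laptm5 had none in uninjured replicate 2, and none was at 0 at day 3. The part of these shifts in the TIMP values was not tested. Only SSPC-like and fibroblast-like nuclei were then summed, an alternative chosen after the data were seen. The log2 fold changes were 2.96 for Timp1, -2.41 for Timp2 and -2.62 for Timp3, and all 3 were called by edgeR (adjusted p = 0.0247, 0.0153 and 0.0125). This sum does not hold the mixture fixed. Without integration of the libraries, the cluster named fibroblast-like held 0 and 4 uninjured nuclei and 49 and 179 of day 3.

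Within single stromal-like clusters, formed after integration of the libraries, the same order was seen, on fewer UMIs. The SSPC-like cluster held 22 and 37 nuclei of day 3, and 4 and 6 in a coarser clustering. Without integration, the cluster with Pi16 among its top genes held 66 and 231 uninjured nuclei and 0 and 0 of day 3. The paper did not find Pi16-expressing SSPCs in tissue at day 3. Whether the same cells are compared was not tested. In SSPC-like nuclei Timp2 was read at 545 and 525 CPM before injury and at 32.4 and 90.5 CPM on day 3, and Timp3 at 233 and 335 CPM against 48.6 and 43.4 CPM. For both genes the day 3 values lay below the uninjured values, which was not tested in this cluster alone. In fibroblast-like nuclei Timp3 stood at 343 and 464 CPM uninjured, with 91.3 CPM in day 3 replicate 2 and no UMI in the 29 nuclei of replicate 1, where a count of 0 allows up to 35.7 CPM. Timp2 stood there at 107 and 251 CPM uninjured and 23.8 and 103 CPM at day 3, so that its groups nearly met.

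Timp1 had no UMI in the SSPC-like or the fibroblast-like nuclei of uninjured replicate 1, where counts of 0 allow up to 46.7 and 64.4 CPM, and in uninjured replicate 2 it stood at 12.3 CPM in SSPC-like and 30.7 CPM in fibroblast-like nuclei. At day 3 it stood at 146 and 90.5 CPM in SSPC-like and at 59.4 and 197 CPM in fibroblast-like nuclei. In IIFC-like nuclei, the fibrogenic stage that appears after fracture, only 14 and 21 nuclei were found in the uninjured libraries, and the Timp1 values there rest on 1 UMI each. The day 3 values of IIFC-like nuclei, 64.5 and 142 CPM, lay close to those of the fibroblast-like nuclei.

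**Figure D1:**
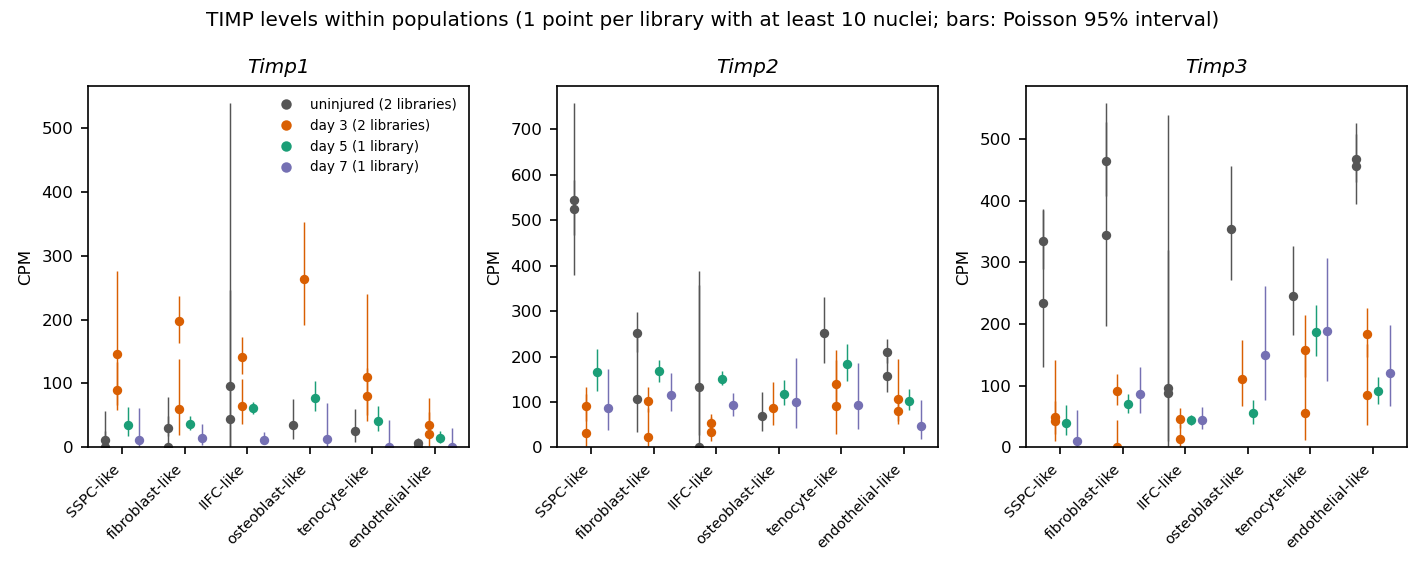
Levels of Timp1, Timp2 and Timp3 (vertical axis, CPM) in 6 populations, 1 point per library with at least 10 nuclei of the population, coloured by time point, with exact Poisson 95% intervals that cover counting error only. In SSPC-like nuclei the day 3 points of Timp2, at 32.4 and 90.5 CPM, sit far below the uninjured points at 545 and 525 CPM. The day 3 points of Timp1 sit above the uninjured points there. The number of day 3 nuclei in the SSPC-like cluster depends on the clustering.

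In endothelial-like nuclei, the vessel lining, summed over their clusters, Timp3 was lower at day 3 as in the stroma. It stood at 456 and 468 CPM before injury and at 85.0 and 183 CPM on day 3, with 90.9 CPM in the day 5 library and 120.2 CPM in the day 7 library. The groups did not overlap, and the log2 fold change was -1.78 (SE 0.33, adjusted p = 0.0286 by edgeR). Of the 9 members 4 passed the filter on low counts here and Timp3 alone was called, where 3.61% of the 6805 genes tested were called, 1.68% higher and 1.94% lower. The adjusted p was 0.437 without uninjured replicate 2, 0.118 without day 3 replicate 1 and 0.0818 without day 3 replicate 2, with log2 fold changes from -2.43 to -1.54. A joint fit chosen after the data were seen tested whether the day 3 change differs between stromal-like and endothelial-like nuclei. Mmp14 was the only member called, where 3.84% of all genes tested were, and the difference for Timp3, -0.91 (SE 0.42) on the log2 scale, was not called (adjusted p = 0.354 by edgeR).

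Mmp14, known for its role at the tip of vessel sprouts, had a larger fold change in endothelial-like nuclei and narrowly missed the threshold. Its levels were 21.4 and 51.8 CPM uninjured, 106 and 235 CPM at day 3, 213 CPM at day 5 and 56.1 CPM at day 7, so the day 3 values lay above both uninjured values. The log2 fold change of 2.12 (SE 0.48) had an adjusted p of 0.0525 by edgeR and passed the threshold under 4 of the alternatives, DESeq2 among them (adjusted p = 0.0444). Timp2, at 157 and 211 CPM against 106 and 80.4 CPM, did not pass (log2 fold change -1.16, SE 0.35, adjusted p = 0.125 by edgeR), and nor did Mmp2 (-0.18, SE 0.73). In these sums the 6 immune markers together stood at 7.13 and 36.8 CPM before injury and at 63.8 and 253 CPM on day 3, with Coro1a and Cd53 at 0 in day 3 replicate 1 and none at 0 in replicate 2. The 6 IIFC markers stood at 152 and 550 CPM and then at 415 and 902 CPM, and those of pericytes and smooth muscle at 188 and 107 CPM and then at 21.3 and 22.7 CPM. The 7 endothelial markers stood at 7470 and 7541 CPM and then at 4326 and 5711 CPM. The mix of the clusters summed here shifted too. The cluster led by Kit and Adgrl4 held 29 of 212 and 40 of 259 uninjured nuclei. At day 3 it held 21 of 40 and 24 of 63. The cluster led by Egfl7 and Rasip1 held 58 and 48 uninjured nuclei and 1 and 3 at day 3. The part of these lists and shifts in the results was not tested.

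In immune-like nuclei none of the 3 members that passed the filter was called, by edgeR or by DESeq2, and none had an unadjusted p under 0.05 by edgeR, where 0.455% of the 4831 genes tested were called, 0.0207% higher and 0.435% lower. Uninjured replicate 1 held only 12 immune-like nuclei with 7179 UMIs. There 1 UMI is 139 CPM, and a count of 0 allows up to 418 CPM. Mmp14 was read at 0 and 44.3 CPM uninjured and at 66.4 and 154 CPM at day 3 (log2 fold change 1.54, SE 0.80, adjusted p = 0.9995 by edgeR). Timp2 stood at 139 and 277 CPM against 133 and 122 CPM, so that its groups nearly met, and Mmp19 at 139 and 25.8 CPM against 58.6 and 22.8 CPM, with overlap. In the joint fit of stromal-like with immune-like nuclei the difference of the day 3 changes was called for 0 members by edgeR, where 1.79% of all genes tested were called, and Timp2 alone had an unadjusted p under 0.05 (difference -1.85, SE 0.72, adjusted p = 0.204).

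**Figure D2:**
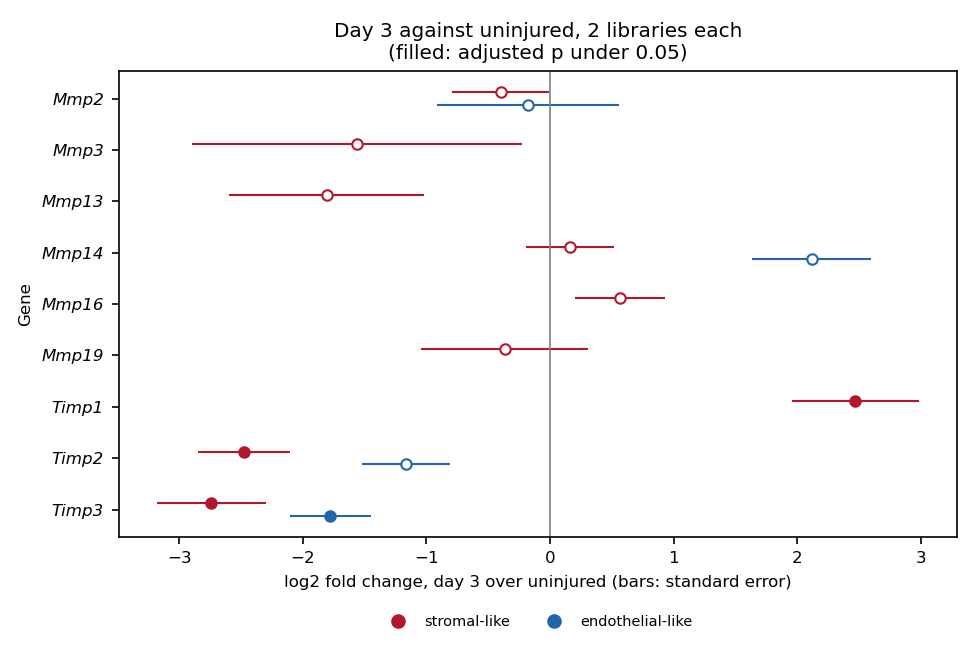
Log2 fold change at day 3 over uninjured (horizontal axis) for each gene in stromal-like (red) and endothelial-like (blue) nuclei, 2 libraries each, with standard errors as bars and filled points where the edgeR adjusted p was under 0.05. Timp1 is filled on the right at 2.47, and Timp2 and Timp3 are filled on the left at -2.47 and -2.74.

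Among the metalloproteinases in stromal-like nuclei, Mmp2 ranged from 109 to 214 CPM over the 6 libraries. It was read at 129 and 214 CPM uninjured, 147 and 119 CPM at day 3, 170.3 CPM at day 5 and 109 CPM at day 7. The day 3 range overlapped the uninjured range (log2 fold change -0.40, SE 0.39, adjusted p = 0.641 by edgeR).

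The membrane-anchored pair was highest at day 5. Mmp14 stood at 137 and 122 CPM uninjured, 107 and 176 CPM at day 3, 300.0 CPM at day 5 and 103 CPM at day 7, with overlap between day 3 and uninjured (log2 fold change 0.16, SE 0.35, adjusted p = 0.861 by edgeR). Mmp16 stood at 98.9 and 141 CPM uninjured, 134 and 234 CPM at day 3, 348 CPM at day 5 and 199 CPM at day 7 (day 3 log2 fold change 0.56, SE 0.36, adjusted p = 0.440 by edgeR). Days 5 and 7 have 1 library each, so their differences from the other times have no replicate check.

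The secreted Mmp13, Mmp3 and Mmp19 had few UMIs in stromal-like nuclei. Mmp13 was read at 190.2 CPM (25 UMIs) and 29.2 CPM uninjured, 24.9 and 26.6 CPM at day 3, 32.7 CPM at day 5 and 45.7 CPM at day 7. The first value stands apart, and of its 25 UMIs 20 came from 2 of the 6 osteoblast-like nuclei in that library. The log2 fold change at day 3 was -1.81 (SE 0.79, adjusted p = 0.216 by edgeR) and -0.28 without uninjured replicate 1. Mmp3 was read at 53.3 and 16.1 CPM uninjured and 24.9 and 0.566 CPM at day 3, on 7, 21, 10 and 1 UMIs, and Mmp19 at 38.0 and 22.3 CPM and then 27.4 and 15.8 CPM. Neither passed (adjusted p = 0.585 and 0.828 by edgeR), and both were at or below 10.4 CPM at days 5 and 7. Without day 3 replicate 1 Mmp3 was called lower (adjusted p = 0.0053 by edgeR), on the 1 UMI of the other day 3 library.

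**Figure D3:**
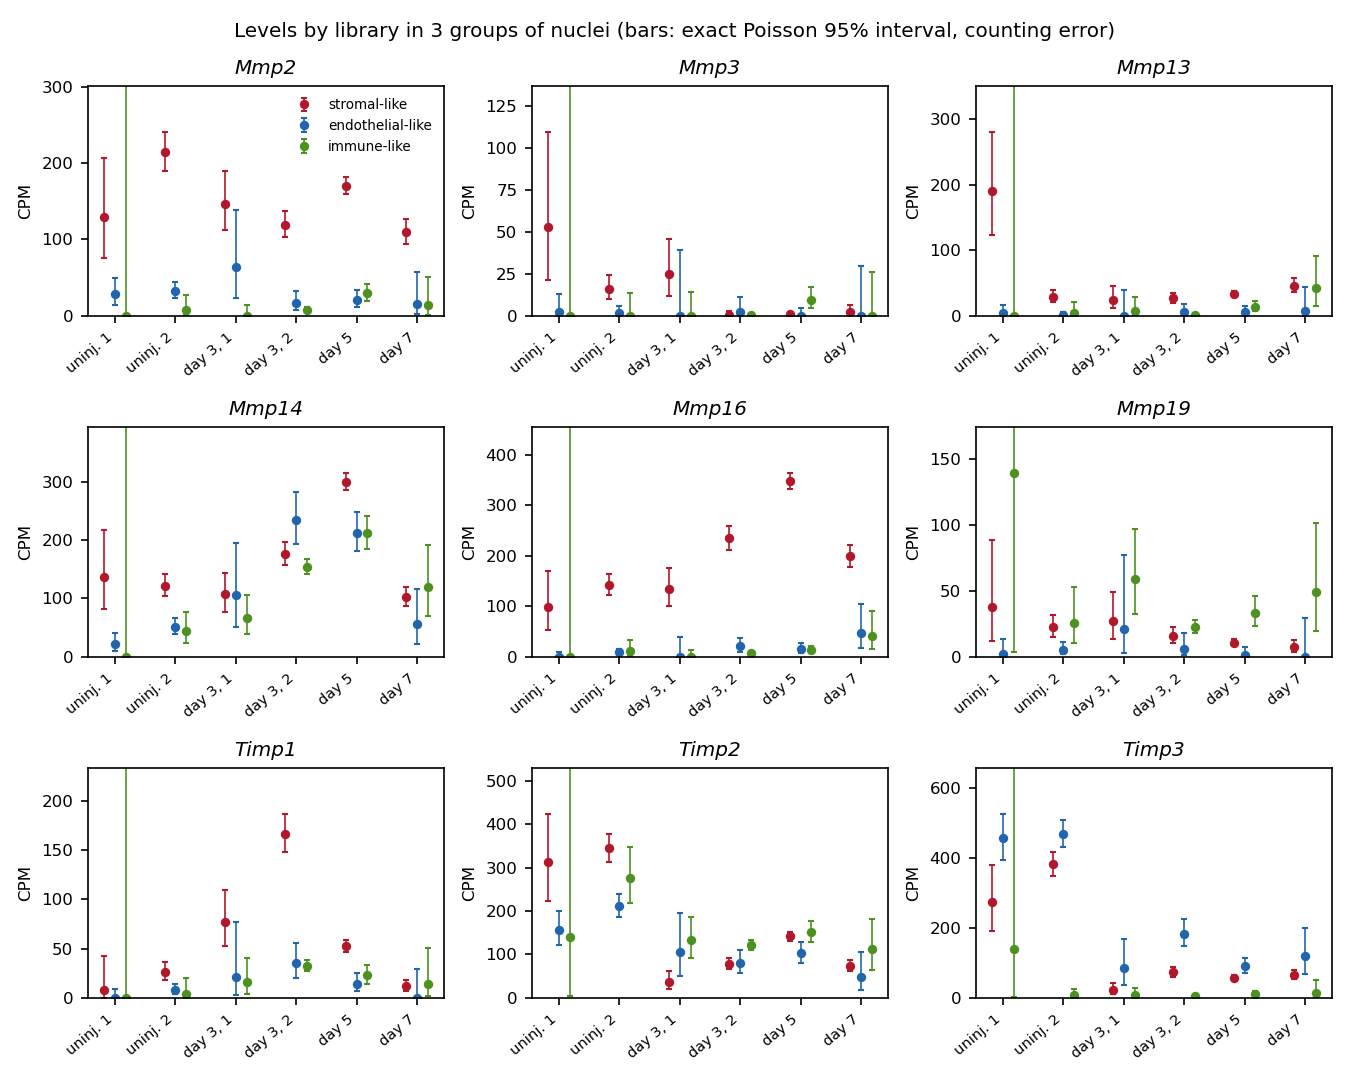
Level of each gene (vertical axis, CPM) in stromal-like, endothelial-like and immune-like nuclei of each of the 6 libraries (horizontal axis), with exact Poisson 95% intervals that cover counting error only. The intervals of the immune-like nuclei of uninjured replicate 1, which hold 12 nuclei, run past the top of the panels. Stromal-like Timp2 and Timp3 are highest in the uninjured libraries, Timp1 at day 3, and Mmp14 and Mmp16 at day 5, at 300.0 and 348 CPM.

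The populations, including the unnamed clusters, were ordered for each gene by the median level over libraries with at least 20 of their nuclei. For most neighbours in these orders the ranges over libraries overlapped, which was so for 152 of 162 neighbouring pairs, so the orders are mainly a guide to the upper end. Different libraries enter for different populations, so that the orders also carry differences between time points. Mmp13 stood at a median of 235 CPM in osteoblast-like nuclei (180.2 to 312 CPM in 4 libraries), and the next median was 42.1 CPM, from 1 library, in the unnamed cluster led by Pax7 and Chodl. Single values reached 212 CPM in tenocyte-like nuclei, inside the osteoblast-like range, and 177 CPM in IIFC-like nuclei. Mmp13 stood at 4.19 CPM in endothelial-like and 2.10 CPM in macrophage-like nuclei taken over all libraries. When every nucleus was thinned to 500 UMIs, 8.47% of osteoblast-like nuclei had an Mmp13 UMI (exact 95% interval 5.79 to 11.9), against 0.564% of endothelial-like nuclei, at median depths of 1609 and 2180 UMIs. Without thinning these shares were 17.1% and 1.35%.

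Mmp16 was also highest in osteoblast-like nuclei, at a median of 753 CPM, though with a wide range over libraries. Its 4 values there were 395, 1111, 1476 and 174.6 CPM in uninjured replicate 2, day 3 replicate 2, day 5 and day 7. Tenocyte-like nuclei, which carry tendon markers, followed at 448 CPM (215 to 549 CPM in 5 libraries) and overlapped with them, and chondrocyte-like nuclei at 249 CPM (2 libraries). After thinning to 500 UMIs, 28.2% of osteoblast-like nuclei had an Mmp16 UMI (exact 95% interval 23.6 to 33.2) against 0.564% of endothelial-like and 0.192% of macrophage-like nuclei. Without thinning 49.3% of osteoblast-like nuclei had one.

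Mmp2 was spread over tenocyte-like nuclei and several stromal-like populations. Its medians were 239 CPM in tenocyte-like, 201 CPM in fibroblast-like, 165 CPM in SSPC-like and 134 CPM in IIFC-like nuclei, each overlapping with the next. Mmp3 was low everywhere, with medians of 13.6 CPM in SSPC-like and 9.39 CPM in fibroblast-like nuclei, and it had no UMI in pericyte/smooth muscle cell-like (pericyte/SMC-like), Schwann-like or chondrocyte-like nuclei. Mmp19 was highest in the immune cluster led by Arg1 and Hmox1, at 54.7 CPM (27.3 to 98.7 CPM in 4 libraries), ahead of fibroblast-like nuclei at 25.3 CPM, with overlap. Mmp14 was the most widely read metalloproteinase. Osteoclast-like nuclei, the bone-resorbing cells, had the highest median, with 428 CPM at day 5 and 311 CPM at day 7, followed by the unnamed cluster led by Pax7 and Chodl at 319 CPM in 1 library and by osteoblast-like and IIFC-like nuclei at medians of 193 and 177 CPM. The highest values of osteoblast-like and tenocyte-like nuclei, 378 and 421 CPM, lay within the osteoclast-like range.

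Timp3 had its highest median in Schwann-like nuclei, the glia of peripheral nerve, which enter through the 2 uninjured libraries alone, at 473 and 679.8 CPM. In those libraries it also stood at 456 and 468 CPM in endothelial-like, 343 and 464 CPM in fibroblast-like and 209 and 539 CPM in pericyte/SMC-like nuclei, and the last of these overlapped with the Schwann-like values. Tenocyte-like nuclei were next by median, at 186 CPM over 5 libraries. After thinning to 500 UMIs, 12.5% of endothelial-like nuclei had a Timp3 UMI (exact 95% interval 10.4 to 14.9) against 0.192% of macrophage-like nuclei. Timp2 had its highest median in a fibroblast-like cluster marked by Luzp2 and Cldn1, which also enters through the uninjured libraries alone, at 308 and 294 CPM, but in those libraries it was higher in SSPC-like nuclei, at 545 and 525 CPM. By median macrophage-like nuclei followed at a median of 189 CPM (159.8 to 391 CPM in 5 libraries). Timp1 stood at 79.2 CPM in neutrophil-like nuclei, from 1 library, and at medians of 61.1 CPM in IIFC-like and 56.4 CPM in osteoblast-like nuclei, all overlapping.

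**Figure D4:**
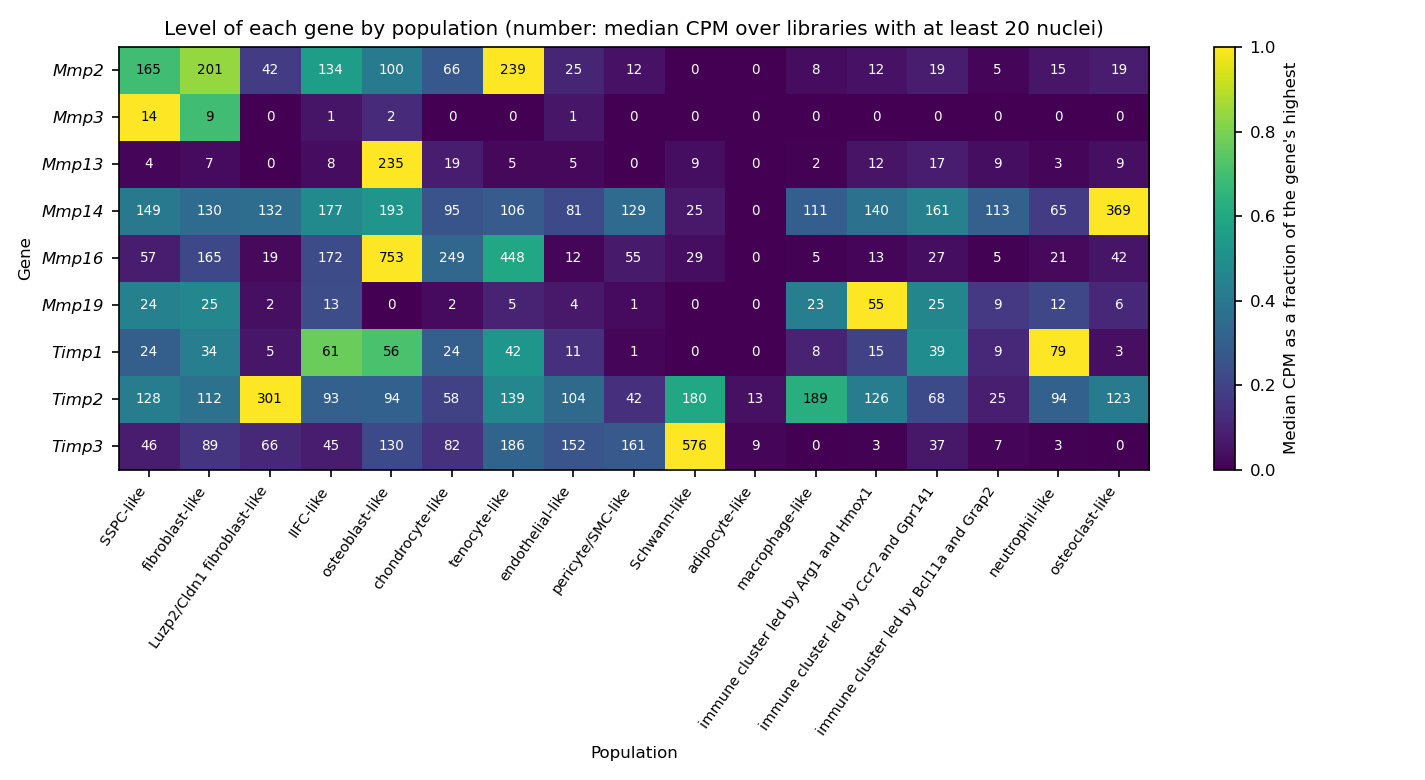
Median level of each gene (rows) in each named population (columns) over libraries with at least 20 nuclei, in CPM as printed in the cells, and coloured as a fraction of that gene's highest median among these columns. The median of Mmp13 is highest in osteoblast-like nuclei at 235 CPM, that of Timp3 in Schwann-like nuclei at 576 CPM, where only uninjured libraries enter, and Mmp14 is above 0 in every column but the adipocyte-like one.

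To ask where the genes are read, stromal-like nuclei were compared with other nuclei of the same libraries by edgeR's quasi-likelihood test with the library as a block. The clusters were formed by the other genes, so large shares of all genes pass such tests. Against immune-like nuclei 6 of 9 members were called, 5 higher in the stroma and 1 lower, where 43.2% of all genes tested were called, 22.6% higher and 20.5% lower. The higher ones were Mmp16 (log2 fold change 4.35, SE 0.40), Mmp2 (3.57, SE 0.38), Timp3 (3.40, SE 0.40), Mmp13 (2.01, SE 0.42) and Timp1 (1.78, SE 0.34), with adjusted p-values of at most 0.000302. Mmp19 was lower in the stroma (-1.15, SE 0.31, adjusted p = 0.0040), and without the day 5 library it was not called (-0.90, adjusted p = 0.0852). Mmp14, Mmp3 and Timp2 did not pass, although Mmp14 was called higher by DESeq2 (0.75, adjusted p = 0.0319) and Mmp3 by edgeR without the nuclei of highest doublet score (2.65, adjusted p = 0.0261).

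Against endothelial-like nuclei 7 of 9 members were called, 6 higher and 1 lower, where 31.1% of all genes tested were called, 18.1% higher and 13% lower. Mmp16 led with a log2 fold change of 4.04 (SE 0.37), followed by Mmp13 at 3.45 (SE 0.43), Mmp3 at 3.27 (SE 0.78), Mmp2 at 2.67 (SE 0.25), Mmp19 at 2.20 (SE 0.47) and Timp1 at 2.17 (SE 0.28). Timp3 was lower in the stroma (-0.74, SE 0.21, adjusted p = 0.0178 by edgeR), and without day 3 replicate 2 it was not called (-0.68, adjusted p = 0.0526), while Mmp14 then was (1.08, adjusted p = 0.0200, from 0.81 and 0.0664 with all libraries). Without uninjured replicate 2, Mmp3 was not called (adjusted p = 0.0587 by edgeR).

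Against pericyte/SMC-like nuclei, which wrap vessels, 4 libraries had enough nuclei. Of the 6 members that passed the filter 3 were called, all higher in the stroma, where 11.5% of all genes tested were called, 6.39% higher and 5.12% lower. Mmp2 had a log2 fold change of 4.09 (SE 0.55, adjusted p = 0.0029 by edgeR) and Timp2 one of 1.83 (SE 0.41, adjusted p = 0.0237). Mmp13 was the third, but it rests on 1 UMI in the pericyte/SMC-like nuclei of these libraries, so its fitted fold change is not given. Timp2 was not called without uninjured replicate 2 (adjusted p = 0.0705) or without the day 7 library (adjusted p = 0.0789). Timp3 stood at 209 and 539 CPM in the pericyte/SMC-like nuclei of the uninjured libraries, beside 274 and 381 CPM in their stromal-like nuclei, and did not pass (-0.38, SE 0.32).

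**Figure D5:**
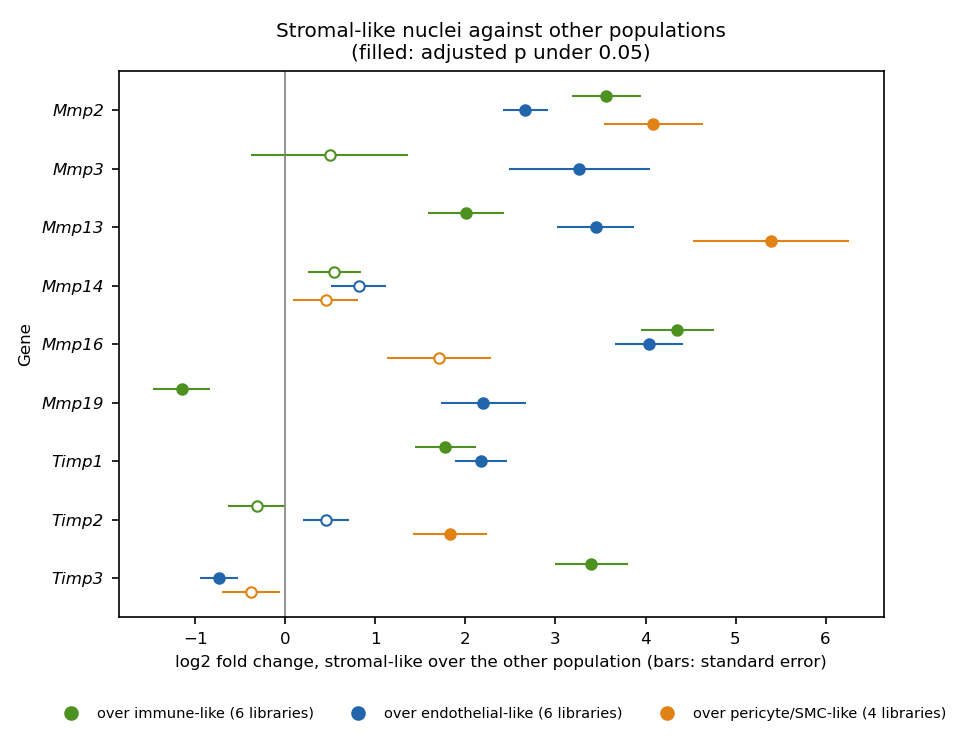
Log2 fold change of stromal-like over immune-like (green), endothelial-like (blue) and pericyte/SMC-like (orange) nuclei (horizontal axis) for each gene, with standard errors as bars and filled points where the edgeR adjusted p was under 0.05. Mmp2 and Mmp16 lie far to the right, with 4.35 for Mmp16 over immune-like nuclei, and Timp3 lies to the right of 0 against immune-like and to the left against endothelial-like nuclei.

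Of the other 18 genes of these families, 2 passed the filter in stromal-like nuclei at day 3. Neither was called, where 8.13% of all genes tested were. By their level or their test 10 of them are named. Mmp9, the osteoclast and neutrophil gelatinase, stood at 406 CPM in osteoclast-like and 180.3 CPM in neutrophil-like nuclei over all libraries, and Mmp8, the neutrophil collagenase, and Mmp25 stood at 153 and 69.3 CPM in neutrophil-like nuclei. Mmp12, the macrophage elastase, stood at 76.1 CPM in the immune cluster led by Arg1 and Hmox1, and Mmp15 and Mmp17 at 91.9 and 53.2 CPM in Schwann-like nuclei. Mmp23 was highest in SSPC-like nuclei at 77.4 CPM. Timp4 had 93 UMIs in pericyte/SMC-like nuclei, with 22 and 70 of them in the uninjured libraries, and 4 in stromal-like nuclei. Mmp27 had 87 UMIs in immune-like and 23 in stromal-like nuclei. Against immune-like nuclei Mmp23 was called higher in the stroma and Mmp8, Mmp12 and Mmp27 lower, of 5 of these genes tested. Against endothelial-like nuclei Mmp23 was called higher and Mmp15 and Mmp28 lower, of 4 tested, and against pericyte/SMC-like nuclei Timp4 was called lower, of 3 tested. In these 3 comparisons 43.2%, 31.1% and 11.5% of all genes tested were called.

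Mmp28, an endothelial-like member of the family at 96.7 CPM over all libraries, was lower at day 3 in endothelial-like nuclei, at 126 and 145 CPM uninjured against 42.5 and 24.7 CPM. The groups did not overlap, with a log2 fold change of -2.33 (SE 0.45, adjusted p = 0.0322 by edgeR). The part of the shifted mix of endothelial-like clusters in this value was not tested.

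Among 21 related proteases that TIMPs can inhibit, 17 were tested in stromal-like nuclei at day 3 and 3 were called, all higher, where 8.13% of all genes tested were called. Adam12, a membrane protease of mesenchymal cells, stood at 198 and 353 CPM uninjured and 2463 and 1741 CPM at day 3 (2.96, SE 0.47, adjusted p = 0.0049 by edgeR). The aggrecan-cutting Adamts4 had 0 and 1 UMIs in the uninjured and 6 and 34 UMIs in the day 3 stromal-like nuclei (adjusted p = 0.0318), and Adamts6 stood at 145 and 233 CPM against 431 and 669.5 CPM (1.49, SE 0.37, adjusted p = 0.0313). In endothelial-like nuclei 3 of the 13 related proteases tested were called, all higher, where 3.61% of all genes were, and in immune-like nuclei 0 of 5 by edgeR, with 1 at an unadjusted p under 0.05, where 0.455% of all genes were. Between populations, the related proteases called numbered 15 higher and 1 lower in the stroma than in immune-like nuclei (of 17 tested), 10 and 6 against endothelial-like nuclei (of 18) and 3 and 2 against pericyte/SMC-like nuclei (of 16), where 43.2%, 31.1% and 11.5% of all genes tested were called. Of 11 activators, inhibitors and cofactors of these enzymes, those called in the same 3 comparisons numbered 3 higher and 2 lower of 8 tested, 2 and 1 of 8, and 1 and 0 of 7.

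The genes nearest to each member were sought by Pearson's correlation of log2(CPM + 10) over 65 sums of a library and a population, among 11835 genes. The sums share libraries and populations, so these values are descriptions. Mmp2 was nearest to Bicc1 and Itgbl1 (r = 0.840 and 0.839), Mmp16 to Sobp and Igsf10 (0.825 and 0.810), Timp3 to Pdzd2 and Cuedc1 (0.776 and 0.760), and Mmp19 to Emilin2 and Ifi204 (0.775 and 0.706). Timp1 was nearest to Sfrp2 and Ptx3 (0.737 and 0.729), Mmp3 to Dpep1 and Osr2 (0.706 and 0.657), and Mmp13 to Pdzrn4 and Gm40841 (0.699 and 0.684). Mmp14, with Parp8 and Aven (0.649 and 0.601), and Timp2, with Steap3 and Fam234a (0.595 and 0.591), had no close partner by this measure. Within the family itself Mmp2 and Mmp16 were most alike (r = 0.621).

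The barcodes left out by the filters or by the removal of myogenic nuclei also held reads of these genes. In day 3 replicate 2, 3978 of its 4483 Timp1 UMIs lay in barcodes left out, where Timp1 stood at 175 CPM, beside 72.1 CPM in the nuclei analysed. Mmp14 stood at 195 CPM in the barcodes left out and 168 CPM in the nuclei analysed of that library. With all deposited barcodes summed per library, an alternative chosen after the data were seen, Timp3 was called lower at day 3 (log2 fold change -3.07, SE 0.38, adjusted p = 0.0385 by edgeR), and Timp1 (3.36, SE 1.13, adjusted p = 0.172) and Timp2 (-0.77, SE 0.37, adjusted p = 0.317) were not called.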

How the data were processed

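Per the labels and the study's methods, nuclei were sorted, made into 10x Genomics 3′ libraries and counted with Cell Ranger over introns and exons. The authors deposited UMI counts per gene and barcode before the study's quality limits, 13551 barcodes with 55293921 UMIs in all. Their gene lists differ. Those of day 3 replicate 1, day 5 and day 7 are longer than those of the other libraries, and some symbols differ. The file headers name version 6.0.0 for uninjured replicate 1 and days 5 and 7 and version 7.1.0 for the others; the notes name build mm10, which the mouse gene identifiers bear out, while a protocol label names a human genome.

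From these counts, barcodes were kept (8067) if they had between 200 and 5000 genes and if ribosomal UMIs made up less than 1.5% and mitochondrial UMIs less than 2%, myogenic nuclei were removed, and libraries were integrated with Seurat 5.3.0 (20 components, resolution 1.3) on features that leave out the genes of all lists used. At most 7 barcodes were shared by any 2 libraries. Doublets were kept in the main values, since Scrublet (scanpy 1.11.5) marked under 0.5% of barcodes overall. The alternative without doublets, chosen after this was seen, leaves out the 6% of kept barcodes per library with the highest Scrublet scores.

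Counts were summed per library and population (at least 10 nuclei) and tested with edgeR 4.0.16 (filterByExpr, TMM, quasi-likelihood, R 4.3.3), with Benjamini-Hochberg adjustment over all genes tested and calls at 0.05. DESeq2 1.42.0 was an alternative, beside other filters, clusterings and libraries left out. The steps were tested on simulated data. Intervals and limits for a count of 0 (3 UMIs) cover counting error only. Members and lists were chosen with earlier results of these data known. Named are the 9 members, other family genes that were called or reach 50 CPM in a population of at least 50 nuclei, cofactors and related proteases called in the stromal-like day 3 test, and the 2 genes nearest to each member. Counts of cofactors called at day 3 are not reported here.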

Additional observations from a re-analysis of the deposited data

Results flagged for a closer look

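The following 3 genes differed between stromal-like and endothelial-like nuclei in their day 3 change, by a term for this difference in a joint edgeR fit that was chosen after the data were seen. Of the genes tested, 3.84% passed. For Mmp14 the stromal-like change was smaller by 1.84 on the log2 scale (difference -1.843, SE 0.48, adjusted p = 0.0299 by edgeR): its levels were 137 and 122 CPM uninjured and 107 and 176 CPM at day 3 in stromal-like nuclei, and 21.4 and 51.8 CPM and then 106 and 235 CPM in endothelial-like nuclei.

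For Lrp1, the receptor that clears metalloproteinase and inhibitor complexes, the difference was -1.973 (SE 0.53, adjusted p = 0.0357 by edgeR). It stood at 373 and 411 CPM uninjured and 463 and 483 CPM at day 3 in stromal-like nuclei, and at 9.51 and 20.1 CPM and then 159 and 53.6 CPM in endothelial-like nuclei, on 4, 24, 15 and 26 UMIs. For the protease Adamts18 the difference was 2.597 (SE 0.72, adjusted p = 0.0425 by edgeR), with 30.4 and 3.07 CPM uninjured and 9.96 and 42.5 CPM at day 3 in stromal-like nuclei, on 4, 4, 4 and 75 UMIs, and 166 and 120.3 CPM and then 53.2 and 128 CPM in endothelial-like nuclei. Both of its groups overlapped in each population.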

How the results depend on the processing

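Of 71 counts of members called under an alternative, 57 stayed within 1.5 times the main count. In stromal-like nuclei at day 3 the count of 3 was 1 with all nuclei and 1 with all deposited barcodes, where other cells enter the sums, and ranged from 0 to 4 with a library left out, with 0 without either uninjured replicate. In endothelial-like nuclei the count of 1 was 2 with DESeq2, 3 with no filter on low counts, 2 with looser limits on mitochondrial and ribosomal UMIs and 2 with no integration, and ranged from 0 to 1 with a library left out; in immune-like nuclei it was 0 throughout. Leaving out a library gave 5 to 6 members against immune-like, 6 to 7 against endothelial-like and 2 to 3 against pericyte/SMC-like nuclei. With no block for the library the count was 4 against endothelial-like and 1 against pericyte/SMC-like nuclei, and with no filter 5 against the latter. Beyond fewer libraries or genes in the fit, the cause was not tested. No paired analysis was possible because the labels give no replicate numbers, the test across time being between separate pools.

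Of 489 alternative values for single members, 18 changed sign, none of them called in the main test. With a library left out, the stromal-like day 3 log2 fold changes ranged from -0.89 to 0.23 for Mmp19, from -0.75 to 0.038 for Mmp2, from -0.062 to 0.33 for Mmp14 and from -5.45 to 0.088 for Mmp3. Mmp19 was 1.32 with all nuclei and 1.11 with all barcodes, Mmp2 0.21 with all barcodes, and Mmp14 -0.11 in SSPC-like and fibroblast-like nuclei only. In endothelial-like nuclei Mmp2 was 0.15 with DESeq2, 0.17 with looser limits and from -1.10 to 1.06 with a library left out. In immune-like nuclei the range was -0.52 to 1.21 for Mmp19 and -1.03 to 1.23 for Timp2, negative for Mmp19 without uninjured replicate 2 and without day 3 replicate 1 (-0.31). Stromal-like against immune-like, it was -0.24 to 0.43 for Mmp3 and -0.51 to 0.051 for Timp2, with -0.11 for Mmp3 without day 3 replicate 1, and Timp2 was 0.18 with no block for the library. Of 108 stromal-like levels, 1 moved by more than its interval, Mmp13 at day 5, to 28.1 CPM without the 6% of nuclei per library of highest doublet score. Leaving out only the nuclei that Scrublet marked, as first planned, was not run. The stromal-like day 3 libraries hold 121 and 251 nuclei, and members with a few UMIs per library, such as Mmp3, could not show differences of moderate size.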
